A study of Homo sapiens with 5 samples.

Results

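Small nucleolar RNAs (snoRNAs), the related small Cajal body RNAs and the noncoding genes that host snoRNAs were followed through a pull-down of the microRNA miR-182-5p in HEK293T cells (an established human line of embryonic kidney origin). Members were chosen by gene symbol, with the probe selected on its mean value, and the group itself was put forward on the measured difference between pull-down and mock. Every gene named SNORD, SNORA, SCARNA or SNHG with a number, or named GAS5, MALAT1, NEAT1 or EPB41L4A-AS1, was included. Of the 8127 genes measured, 27 met this rule, namely 15 box C/D snoRNAs, 8 box H/ACA snoRNAs, 1 small Cajal body RNA and 3 host genes. The other 4 noncoding RNAs named in the rule had no named probe among the values used here. Where a gene had more than 1 probe, the brightest one on average over the 5 arrays was used. That choice touched only SNHG5, because the other 26 members had a single probe.

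The data were 2 Illumina BeadArrays from cells given 200 pmol of a biotin-labelled miR-182-5p duplex, whose microRNA and bound RNA were collected on streptavidin beads, and 3 arrays from mock-transfected cells. Cells of both groups were harvested after 24 h, and all arrays came from the same cell line. The mock arrays carry the word "none" in their pull-down label although the bead protocol is attached to them too. Whether mock RNA was passed over beads is therefore not settled, and bead isolation and microRNA cannot be told apart in this comparison. Whether the arrays within a group represent independent cultures is not stated, so p-values reflect the variation among these arrays alone, and the small number of arrays limits the precision. Values are the authors' deposited log2 values, as single arrays or as mean ± SD (n = 2 pull-down and n = 3 mock arrays), and differences are pull-down minus mock.

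Over all genes the pull-down arrays correlated with each other at r = 0.978, the mock arrays at 0.980 to 0.987, and arrays of different groups at 0.885 to 0.904. Of 7 measured marker genes of the HEK293 line, 1 fell and the others did not pass the test, and 2 (KRT18 and NEFH) were at the lower limit of the values in all 5 arrays. Vimentin (VIM) was at 13.40 ± 0.51 in the pull-down and 13.52 ± 0.11 in the mock, and UCHL1, the gene that fell, at 10.01 ± 0.09 in the pull-down and 12.26 ± 0.09 in the mock. Of 6 markers of other cell types only the collagen gene COL1A1 was measured, and it lay at the lower limit in all 5 arrays.

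Most snoRNAs are cut out of the introns of host genes. Box C/D snoRNAs pair with ribosomal RNA and direct the methyltransferase fibrillarin to it, and box H/ACA snoRNAs direct the pseudouridine synthase dyskerin. Small Cajal body RNAs do the same for spliceosomal RNAs. Many host genes encode ribosomal proteins or translation factors, while others, the SNHG genes, make spliced RNAs with little or no coding potential. Mature snoRNAs have no poly(A) tail, and the MessageAmp labelling kit named in the labels primes on poly(A). A snoRNA probe may therefore have recorded mature snoRNA, unspliced host RNA or other RNA, and these cannot be told apart here. The results also do not separate fewer molecules bound to the beads from fewer molecules in the cells.

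The transfected microRNA is shown because its seed, bases 2 to 8 (in capitals), sets which transcripts it pairs with. The sequence is that of RefSeq for GRCh38.p14, encoded on the minus strand at chr7:129770447-129770470.
hsa-miR-182-5p: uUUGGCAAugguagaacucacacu

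The promoters of the 3 host gene members are shown because 1 of these genes, SNHG5, was called lower in the pull-down and the others were not. Each runs from 250 bases before to 50 after the annotated start of the gene (RefSeq, GRCh38.p14), 5′ to 3′ on the strand of the gene, at chr6:85678684-85678983 (minus) for SNHG5, chr6:31834666-31834965 (plus) for SNHG32 and chr20:38446404-38446703 (plus) for SNHG11. Capitals mark the longest unbroken run of C and T that touches the 20 bases on either side of the start. Such runs are a known feature of host genes, whose transcripts often begin with a pyrimidine tract.
SNHG5: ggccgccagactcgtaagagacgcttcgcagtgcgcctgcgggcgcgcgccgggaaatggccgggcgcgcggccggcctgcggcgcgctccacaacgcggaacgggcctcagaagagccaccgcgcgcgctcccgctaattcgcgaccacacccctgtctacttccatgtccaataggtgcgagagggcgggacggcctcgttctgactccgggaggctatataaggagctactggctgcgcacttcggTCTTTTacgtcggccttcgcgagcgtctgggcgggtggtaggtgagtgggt
SNHG32: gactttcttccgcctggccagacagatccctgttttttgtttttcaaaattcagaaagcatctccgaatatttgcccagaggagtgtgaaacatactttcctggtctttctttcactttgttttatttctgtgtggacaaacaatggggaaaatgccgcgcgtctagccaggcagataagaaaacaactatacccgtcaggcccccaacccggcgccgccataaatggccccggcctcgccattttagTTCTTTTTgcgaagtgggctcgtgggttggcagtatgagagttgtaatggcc
SNHG11: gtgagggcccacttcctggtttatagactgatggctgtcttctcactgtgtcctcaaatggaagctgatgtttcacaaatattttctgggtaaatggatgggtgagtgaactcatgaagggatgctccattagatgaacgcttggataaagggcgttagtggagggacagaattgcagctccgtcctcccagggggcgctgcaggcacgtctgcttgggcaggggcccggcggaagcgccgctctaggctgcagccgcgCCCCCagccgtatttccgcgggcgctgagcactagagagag

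The run in SNHG5 was TCTTTT, 6 bases long, and that in SNHG32 was TTCTTTTT, 8 bases long. Both spanned the annotated start. The run in SNHG11 was CCCCC, 5 bases long, and began at base 10 of the transcript. Of 35116 promoters in the table, 44.6% held a run of at least 6 bases in the same window, 21.9% one of at least 8 and 64.3% one of at least 5. The promoters of 13 coding genes that host snoRNA members were also in the table, with runs of 3 to 25 bases and a median of 10, beside a median of 5 over all promoters. TATAA was present on either strand in SNHG5 and SNHG11 and in 20.4% of all promoters, and CCAAT on either strand in SNHG5 and in 34.6%. These matches describe letters only.

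In the pull-down, 25 of the 27 members had a lower mean value than in the mock, and the median difference was -0.18, beside 0.02 over all 8127 genes. By limma on all genes, at a Benjamini-Hochberg adjusted p under 0.05, 8 members were lower (over all genes 15.0% were) and 1 was higher (over all genes 20.2%), while 18 did not pass. In 21 members every pull-down value lay below every mock value (30.1% of all genes), and in 1 every pull-down value lay above (35.0% of all genes). The rule names this same comparison, and the group was put forward with differences of these arrays known, so these counts are a description and nothing is read from them. Without pull-down array 1 the median difference of the members was -0.187, and without pull-down array 2 it was -0.165. Fewer members were called lower in these fits, each of which leaves 1 pull-down array. The 1 higher call was lost whichever array was left out. With limma-trend and robust eBayes, 13 members were called lower. The shares over all genes in these settings are not given here, so a change in the members cannot be told apart from a change over all genes.

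Many of these values lay near the lower limit. The lowest value of an array averaged 8.00 in the pull-down and 8.03 in the mock. In 17 of the 27 members both pull-down arrays lay within 0.1 of the lowest value of their array, and in 7 all 3 mock arrays did. Over all genes these shares were 10.5% and 14.4%. For 6 members, SNORD14B, SNORD32A, SNORD38A, SNORD73A, SNORA65 and SNORA7B, all 5 arrays were at the limit, and none of the 6 was called. Their groups nevertheless did not overlap, with a median difference of -0.03. The lowest values of the arrays themselves differed by -0.03, and the 573 genes at the limit in all arrays had a median difference of -0.02. Of these genes 291 (50.8%) also did not overlap downwards. Without the 6 members, 15 of the 21 that did not overlap downwards remain. For 11 further members only the pull-down was wholly at the limit, so their differences, from -0.66 to -0.04, are bounded by it.

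Only 5 members stayed more than 0.1 above the lowest value in every array, SNORD36A, SNORD35B, SNORA70, SNHG5 and SNHG32. Among the 4296 genes with a mean value below 9, which hold 25 of the 27 members, 6.10% were called lower, 19.0% were called higher and 24.8% did not overlap downwards. The members in that range had 7 lower calls, 1 higher call and 19 that did not overlap downwards.

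**Figure D1:**
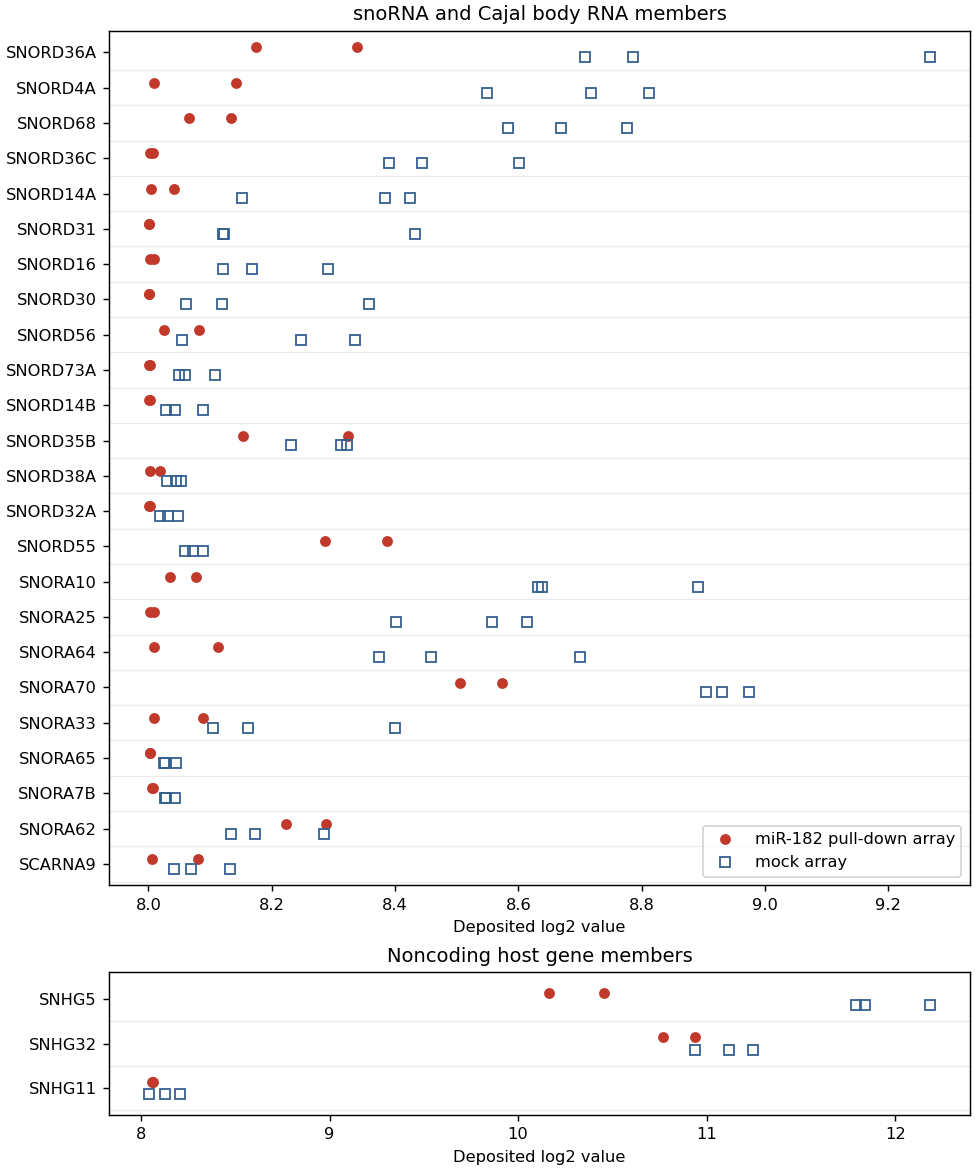
Deposited log2 value (horizontal axis) of each member in each array, with filled circles for the 2 miR-182 pull-down arrays and open squares for the 3 mock arrays; the panels for snoRNAs and host genes have different scales. Pull-down values of most snoRNAs sit near 8.00, and SNORD55 is the 1 member whose pull-down values all lie above its mock values.

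**Figure D2:**
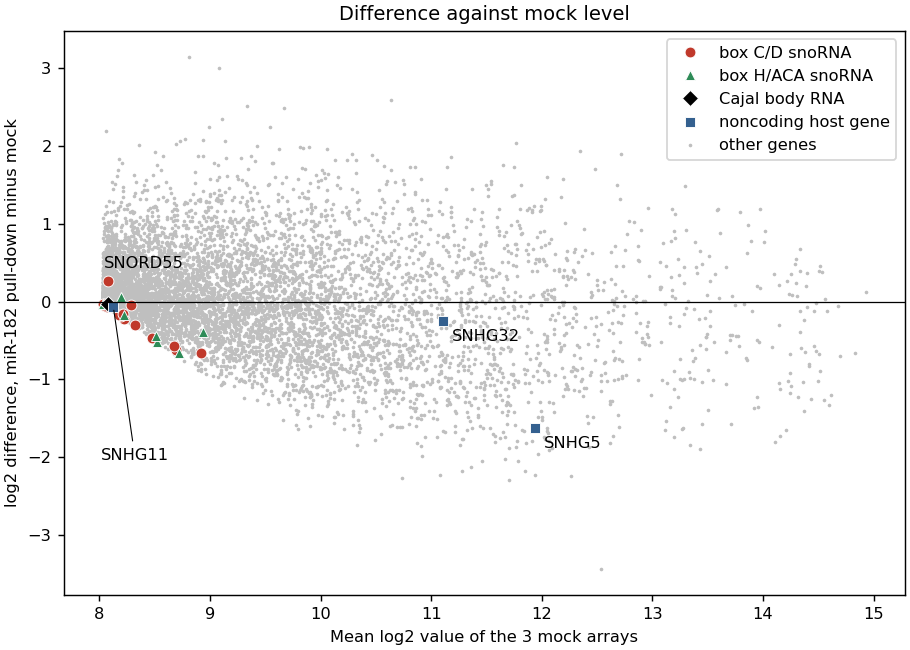
Log2 difference, pull-down minus mock (vertical axis), against the mean log2 value of the mock arrays (horizontal axis) for 8127 genes, with the 27 members in colour by class. Most snoRNAs lie on the lower left edge of the cloud, where the pull-down value is at the lower limit near 8.00.

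Among box C/D snoRNAs, 3 of 15 were called lower (15.0% of all genes were, and 6.10% of those with a mean below 9). A further 1 was called higher (20.2% of all genes were, and 19.0% of those with a mean below 9). SNORD36A (Entrez Gene 26815) was at 8.34 and 8.18 in the pull-down arrays, against 9.27, 8.79 and 8.71 in the mock arrays, a difference of -0.66 (SE 0.20). The groups did not overlap, but mock array 1 stood above the other mock arrays and the gene was not called. It was called lower in 6 of 14 alternative settings, among them the omission of mock array 1, where the difference was -0.49. Its neighbour in the same host gene, SNORD36C, was at 8.01 and 8.00 in the pull-down, against 8.60, 8.39 and 8.44 in the mock (difference -0.47, SE 0.08). Here both pull-down arrays were at the limit and the gene was called.

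SNORD4A had values of 8.14 and 8.01 in the pull-down, against 8.72, 8.55 and 8.81 in the mock (difference -0.62, SE 0.10). SNORD68 had 8.13 and 8.07 in the pull-down, against 8.67, 8.78 and 8.58 in the mock (difference -0.58, SE 0.08). Both were called lower, with pull-down arrays well below each mock array. In both, pull-down array 2 was at the limit, which bounds the difference. SNORD68 was called with each array left out, while SNORD4A was not called when mock array 1 or either of the pull-down arrays was omitted, and SNORD36C without either pull-down array.

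SNORD55 (Entrez Gene 26811) went the other way, at 8.39 and 8.29 in the pull-down, against 8.06, 8.07 and 8.09 in the mock. Its mock arrays were all at the limit, which bounds its difference of 0.26 (SE 0.06). It was the only member called higher, and the call was lost with any 1 of the 5 arrays left out. SNORD38A was at 8.02 and 8.00 in the pull-down, against 8.05, 8.04 and 8.03 in the mock, and so lay at the lower limit in both groups.

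SNORD14A and SNORD14B belong to the U14 family, which is needed for the processing of 18S ribosomal RNA. SNORD14A was at 8.04 and 8.00 in the pull-down, against 8.38, 8.15 and 8.42 in the mock (difference -0.30, SE 0.10), and was not called. SNORD30 and SNORD31 both lie in the noncoding host gene SNHG1, which is not among the genes measured. SNORD30 was at 8.00 in both pull-down arrays, against 8.36, 8.06 and 8.12 in the mock, and SNORD31 at 8.00 in both, against 8.43, 8.12 and 8.12. In both snoRNAs mock array 1 was the high one, and neither was called. SNORD35B, which was above the limit in every array, was at 8.32 and 8.15 in the pull-down, against 8.32, 8.31 and 8.23 in the mock, and its groups overlapped. SNORD16 (difference -0.19), SNORD56 (-0.16), SNORD73A (-0.07), SNORD14B (-0.05), SNORD38A and SNORD32A (-0.03 each) made up the rest, none of them called. SNORD32A is 1 of the snoRNAs of RPL13A known from the response to lipid stress, and its signal was at the limit in every array.

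Among box H/ACA snoRNAs, 4 of 8 were called lower (15.0% of all genes were, and 6.10% of those with a mean below 9) and 0 higher (20.2% of all genes were). At an unadjusted p under 0.05 limma gave 4 lower and 0 higher, beside 1620 lower and 2166 higher among all 8127 genes. Nothing is read from these shares. The 3 largest differences were those of SNORA10, SNORA25 and SNORA64. SNORA10 (Entrez Gene 574042) was at 8.08 and 8.04 in the pull-down, against 8.64, 8.63 and 8.89 in the mock (difference -0.66, SE 0.10). SNORA25 (Entrez Gene 684959) was at 8.01 and 8.00 in the pull-down, against 8.56, 8.40 and 8.61 in the mock (difference -0.52, SE 0.08). Both had a clear mock signal and a pull-down signal at the limit. Without pull-down array 1 and without pull-down array 2 the difference was -0.69 and -0.64 for SNORA10. For SNORA25 it was -0.52 and -0.51. Neither snoRNA was called in these fits, each of which leaves 1 pull-down array.

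SNORA64 was at 8.11 and 8.01 in the pull-down, against 8.70, 8.46 and 8.37 in the mock (difference -0.45, SE 0.12). Its pull-down array 2 was at the limit, and its call was lost when any array other than mock array 3 was omitted. SNORA70 (Entrez Gene 26778) was at 8.57 and 8.51 in the pull-down, against 8.90, 8.93 and 8.97 in the mock (difference -0.40, SE 0.06). Of the snoRNAs called lower, it was the only one clear of the limit in all 5 arrays, and its pull-down signal was 0.760 times that of the mock. Among omissions of a single array, its call was lost only without pull-down array 2. SNORA62 was at 8.29 and 8.22 in the pull-down, against 8.28, 8.13 and 8.17 in the mock, and its groups overlapped (difference 0.06). SNORA33 had a difference of -0.17, and SNORA65 and SNORA7B were at the limit with -0.03 each. The Cajal body RNA SCARNA9, which guides modification of the U2 spliceosomal RNA, was at 8.08 and 8.01 in the pull-down, against 8.13, 8.07 and 8.04 in the mock, and its groups overlapped.

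Of the 3 host gene members, SNHG5 was called lower and SNHG32 and SNHG11 were not called, and differences between the genes were not tested. SNHG5 was the marker of the group, which was put forward on differences of these same arrays. Its rank, its second probe and its calls in alternative settings are therefore a description and no independent support. SNHG5 (Entrez Gene 387066), which carries SNORD50A and SNORD50B in its introns, was at 10.46 and 10.16 in the pull-down, against 12.19, 11.79 and 11.84 in the mock. The difference was -1.63 (SE 0.17), a signal 3.09-fold lower in the pull-down, and it ranked 66 from the bottom of 8127 genes. Its second probe, with 9.97 and 9.77 in the pull-down against 11.25, 11.35 and 11.40 in the mock, was 2.77-fold lower. No array of either group came near the other group at either probe, both probes were far above the limit, and SNHG5 was called in each of the 15 alternative settings.

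SNHG32 (Entrez Gene 50854), which carries SNORD48 and SNORD52, was at 10.94 and 10.77 in the pull-down, against 10.94, 11.25 and 11.12 in the mock, a difference of -0.25 (SE 0.12). The higher pull-down array and the lowest mock array were nearly equal though not overlapping, and the gene was not called. SNHG11 (Entrez Gene 128439), which carries SNORA60 and SNORA71E, was at 8.06 in both pull-down arrays, against 8.21, 8.13 and 8.04 in the mock, with overlapping groups near the limit. None of the 6 snoRNAs inside these host genes was itself among the members measured, so host and guest could not be set side by side for them.

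For the snoRNAs such pairs existed, since 14 of the 24 small RNA members lay inside a measured host gene. These 14 pairs involved 11 hosts, of which 9 fell, 1 rose and 1 did not pass (limma, Benjamini-Hochberg adjusted p under 0.05; over all genes 15.0% were lower and 20.2% higher). All 11 hosts had a mean value of at least 9. The lower share over all genes takes in the 4296 genes with a mean below 9, of which 6.10% were lower. It is therefore not matched to the hosts for level. In 12 pairs both differences were below 0, and in 4 both genes were called lower. In 8 pairs the host was called lower and the snoRNA was not called, and in 10 of the 14 pairs both pull-down arrays of the snoRNA were at the limit. Because the limit bounds those snoRNA values, the sizes of host and snoRNA differences cannot be set against each other.

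RPL7A, which encodes a large-subunit ribosomal protein and holds SNORD36A and SNORD36C, was at 9.08 and 9.11 in the pull-down, against 12.41, 12.63 and 12.56 in the mock, that is, -3.44 (SE 0.09, adjusted p = 0.00163 by limma with Benjamini-Hochberg adjustment). RPS2, which encodes a small-subunit protein and holds SNORA10 and SNORA64, was at 11.96 and 12.64 in the pull-down, against 14.23, 14.26 and 13.83 in the mock (difference -1.80, SE 0.26). Both snoRNAs of RPS2 were called lower with it. RPL13, the host of SNORD68, was at 8.93 in both pull-down arrays, against 9.98, 10.45 and 10.16 in the mock (difference -1.27, SE 0.15), and its second probe gave -1.27 as well.

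RPL13A (-2.05), RPS12 (-1.21), RPS3A (-1.12), NOP56 (-0.90), RPL4 (-0.52) and RPS13 (-0.44) also fell, while SNORD32A, SNORA33, SNORD73A, SNORD56, SNORD16, SNORD14A and SNORD14B inside them were not called. Other probes of RPS3A gave -1.23 and -0.35. RPS13 was called with pull-down array 1 or mock array 3 left out, but not with any other array left out. The differences of SNORD4A and its host RPL23A had opposite signs. RPL23A was at 11.02 and 11.09 in the pull-down, against 10.69, 10.80 and 10.87 in the mock, which was 0.27 higher and did not pass (limma, Benjamini-Hochberg adjusted p = 0.0570), while SNORD4A was called lower. RPL12, the host of SNORA65, rose by 0.37 (SE 0.08), a call that was lost when mock array 2 or either of the pull-down arrays was omitted. Ribosomal protein genes have many processed pseudogenes with which their probes can share signal.

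**Figure D3:**
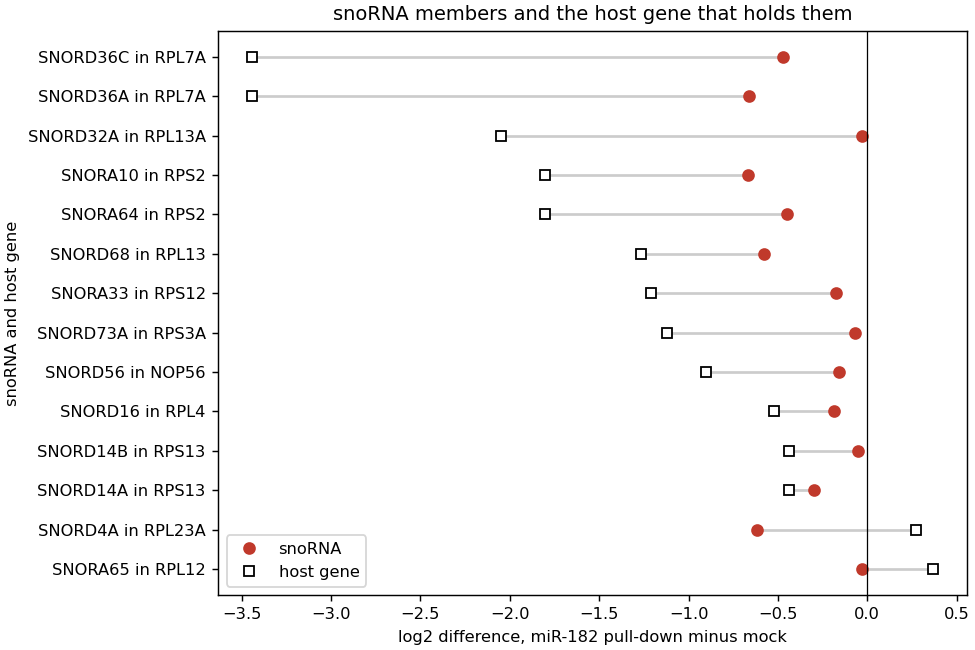
Log2 difference, pull-down minus mock (horizontal axis), of 14 snoRNA members (filled circles) and of the host gene that holds each (open squares), 1 row per pair, ordered by the difference of the host. Host and snoRNA are both below 0 in 12 pairs, and SNORD4A and SNORA65 lie on the other side of 0 from their hosts.

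RNA signals of genes for snoRNP core proteins and assembly factors moved in both directions. Of 22 measured genes of snoRNP core proteins and assembly factors, 7 rose (31.8%, beside 20.2% of all genes), 3 fell (13.6%, beside 15.0% of all genes) and 12 did not pass, with a median difference of 0.20 beside 0.02 over all genes. Of the 22 genes, 15 had a mean of at least 9, so the shares over all genes are not matched to them for level. RUVBL1, an ATPase of the snoRNP assembly complex, was at 11.49 ± 0.45 in the pull-down and 10.06 ± 0.08 in the mock (difference 1.43, SE 0.20, adjusted p = 0.00962 by limma with Benjamini-Hochberg adjustment). The second RUVBL1 probe gave 1.42. Dyskerin (DKC1), the pseudouridine synthase of box H/ACA particles, was at 13.09 ± 0.08 in the pull-down and 11.91 ± 0.18 in the mock, 2.26-fold higher (limma, Benjamini-Hochberg adjusted p = 0.00558). NHP2, its core partner, was 2.23-fold higher, with 0.71 on the log2 scale at its other probe, and was not called when either pull-down array was omitted.

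Fibrillarin (FBL), the methyltransferase of box C/D particles, was 1.92-fold higher (difference 0.94, SE 0.21, limma, Benjamini-Hochberg adjusted p = 0.0291). Of the 5 omissions of a single array, only that of mock array 2 kept this call. The other H/ACA core proteins, NOP10 and GAR1, were chosen after their values were seen. NOP10 had a difference of 0.73 (SE 0.16), called on all arrays and lost without pull-down array 1 or any 1 mock array, and GAR1 had -0.26 (SE 0.10), not called. The 3 lower genes were the C/D core protein NOP56, the assembly factor RPAP3 (-0.62, lost without either pull-down array) and NOPCHAP1 (-0.45). The probes of NOP56 disagreed, with -0.90 at the one used and -1.33 and 0.26 at the others. Leaving out any array but mock array 2 left 4 genes of the list that rose.

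A list of 23 ribosomal protein genes known to host snoRNAs was also described, which is not complete and leaves out RPL13 and RPS3A, both lower as given above. Of its 19 measured genes, 10 fell (15.0% of all genes) and 4 rose (20.2% of all genes), with a median of -0.44. Of the 19 genes, 18 had a mean of at least 9, so the shares over all genes are not matched to them for level. Within this list RPL7A, RPL13A, RPS2 and RPS12 fell the most, and RPS3 (difference 1.19, SE 0.13, limma, Benjamini-Hochberg adjusted p = 0.00578), RPS20 (0.62), RPLP2 (0.39) and RPL12 (0.37) rose. Of these 4 only RPS3 was called with each array left out, and 1 gene of the list rose without pull-down array 1 while 2 rose without mock array 1, mock array 2 or pull-down array 2. Of 31 other coding host genes, 10 fell (32.3%, beside 15.0% of all genes) and 7 rose (22.6%, beside 20.2% of all genes). The median was 0.01, and 29 of the 31 genes had a mean of at least 9, so the same limit applies. The chaperone genes HSPA8 (-1.84, SE 0.47), HSPA9 (-1.21, SE 0.09) and TCP1 (-1.12, SE 0.12) and the translationally controlled TPT1 (-1.02, SE 0.14) fell the most. Other probes gave -1.97 and -0.44 for TCP1, -1.59 for HSPA8 and -0.64 for TPT1.

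The initiation factor EIF5 (1.25, SE 0.27), the splicing factor SF3B3 (1.18, SE 0.30), DKC1 and the clathrin adaptor AP1G1 (1.11, SE 0.21) rose the most in that list. Other probes of EIF5 gave 0.14 and 0.21. HSPA8 was at 11.50 ± 1.05 in the pull-down, so its 2 arrays lay far apart, and its call was lost without any 1 of the mock arrays. EIF5 and SF3B3 lost theirs without pull-down array 2 or any 1 mock array, and AP1G1 without either pull-down array. In this list 6 genes fell without pull-down array 1 or mock array 2. The number that rose was 4 without pull-down array 1 or mock array 3, 3 without mock array 2 and 2 without pull-down array 2 or mock array 1. Of the 2 further noncoding hosts on the list, ZFAS1 and DANCR, neither was measured.

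Many SNHG transcripts, SNHG5 among them, carry short open reading frames and are known as substrates of nonsense-mediated decay, the pathway that removes RNAs with early stop codons. Of 13 measured genes of that pathway, 4 fell (30.8%, beside 15.0% of all genes) and 1 rose (20.2% of all genes did). The median was -0.42, and 8 of the 13 genes had a mean of at least 9. EIF4A3, the core helicase of the exon junction complex, was at 11.09 ± 0.21 in the pull-down and 12.70 ± 0.02 in the mock (difference -1.61, SE 0.10, limma, Benjamini-Hochberg adjusted p = 0.00298). MAGOH (-0.61, SE 0.14) and CASC3 (-0.59, SE 0.13), of the same complex, and SMG8 (-0.76, SE 0.10), a regulator of the kinase SMG1, also fell, and the decay adaptor PNRC2 rose by 0.78 (SE 0.08). MAGOH was not called when either of the pull-down arrays or mock array 3 was omitted, and CASC3 without pull-down array 1 or any 1 mock array, so that 2 genes of the list fell without pull-down array 1.

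Paraspeckles are nuclear bodies built on NEAT1, which was not measured. Of 13 measured genes of paraspeckle proteins 6 fell (46.2%, beside 15.0% of all genes) and 0 rose (20.2% of all genes did). The median was -0.50. Of the 13 genes, 11 had a mean of at least 9, so the shares over all genes are not matched to them for level. At an unadjusted p under 0.05 limma gave 7 lower and 0 higher in the list, beside 1620 lower and 2166 higher among all 8127 genes. HNRNPH1 was at 9.03 ± 0.33 in the pull-down and 10.63 ± 0.21 in the mock (difference -1.60, SE 0.19, adjusted p = 0.00704 by limma with Benjamini-Hochberg adjustment), but the second HNRNPH1 probe gave -0.03. MATR3 had -1.36 (SE 0.22) with 0.09 at its other probe. SFPQ (-0.86, SE 0.13), an essential paraspeckle protein, and EWSR1 (-0.80, SE 0.17, and -1.04 and -1.37 at its other probes) followed. Omitting pull-down array 1 ended the calls of SFPQ and EWSR1, and omitting mock array 1 that of EWSR1. Without pull-down array 1, 3 genes of the list fell.

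Of 11 other noncoding genes, 2 fell (18.2%, beside 15.0% of all genes) and 1 rose (20.2% of all genes did), with a median of -0.03. Only 1 of the 11 had a mean of at least 9, and 4 were at the limit in all 5 arrays. The shares over all genes are therefore not matched to them for level. Among genes with a mean below 9, 6.10% were lower and 19.0% higher. The antisense gene KRT10-AS1 was at 9.88 ± 0.11 in the pull-down and 10.72 ± 0.13 in the mock (difference -0.83, SE 0.10, adjusted p = 0.00762 by limma with Benjamini-Hochberg adjustment). It was called with each array left out. MIR503HG, a microRNA host gene, was at the limit in the pull-down, with 8.00 ± 0.00 against 8.68 ± 0.26 in the mock. LINC00205 rose by 0.25 (SE 0.06) with its mock arrays at the limit, and was not called with any 1 array left out. The call of MIR503HG was kept with mock array 3 left out and lost with any other array left out, where 1 gene of the list fell. The telomerase RNA TERC, which carries an H/ACA domain and was chosen after its values were seen, was at the limit in all 5 arrays.

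**Figure D4:**
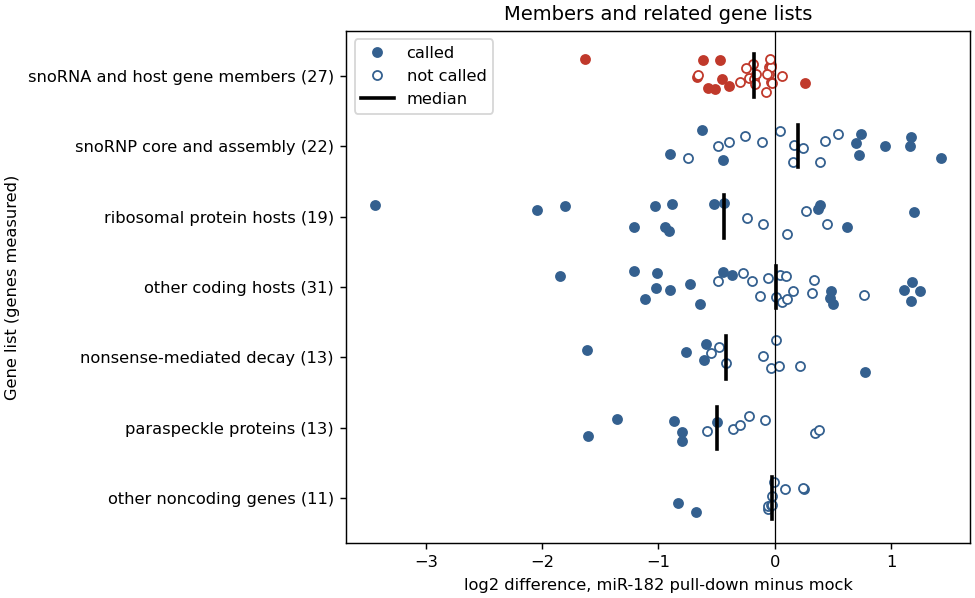
Log2 difference, pull-down minus mock (horizontal axis), of each of the 27 members and of the measured genes of 6 related lists, 1 point per gene, filled where limma called it and open where it did not, with a bar at the median of each list. The median is -0.18 for the members, 0.20 for snoRNP proteins and -0.44 for ribosomal protein hosts.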

How the data were processed

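RNA signal was measured on 5 Illumina arrays (2 miR-182 pull-down, 3 mock). The authors deposited processed log2 values per probe, whose base was inferred from their range because no label states it. The submitters' processing notes name lumi 2.2.1, with no role. Background correction, normalization and the filter that left 11184 probes are not given in the sources used. A further table held 10 value columns whose names match no sample label, and these were not used.

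Of the probes, 10040 had 1 gene symbol, 1 had several and 1143 had none. Of those with 1 symbol, 10039 were matched to a current symbol through their Entrez ID, whether or not the symbol had changed, and 1 kept its symbol as given. The probe with the highest mean stood for each of 8127 genes. limma 3.58.1 in R 4.3.3 was run on all genes with group as the only term (3 residual and 1.61 prior degrees of freedom), and Benjamini-Hochberg adjusted p-values under 0.05 were called. The fit was tested on simulated data with independent normal noise and no lower limit, so that test does not cover values at the limit. A value within 0.1 of the lowest value of its array was taken as at the lower limit.

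All members were named, with every pair of a snoRNA and a measured host. Of each related list, up to 4 called genes with the largest difference in each direction were named. The members and lists were chosen with earlier results of these data known. Which host gene holds which snoRNA was read from RefSeq gene spans (GRCh38.p14).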

Additional observations from a re-analysis of the deposited data

How the results depend on the processing

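With 1 array left out in turn, 2 to 8 members were called lower and 0 were called higher, and their median difference ran from -0.22 to -0.10; a lone pull-down array was assumed to vary like the mock arrays. Over the same omissions the calls were 4 to 5 higher and 2 to 4 lower for snoRNP proteins, 1 to 4 higher and 7 to 9 lower for ribosomal protein hosts, 2 to 4 higher and 6 to 8 lower for other coding hosts, 1 higher and 2 to 4 lower for nonsense-mediated decay factors, 0 higher and 3 to 7 lower for paraspeckle proteins, and 0 higher and 1 to 2 lower for other noncoding genes. Subtracting array medians, quantile normalization, a mean of at least 9, the requirement of a signal above the lower limit in every array of a group, and the replicate block each left 0 members called higher and 0 other noncoding genes called higher. A mean of at least 9 left 2 members, with 1 called lower and a median of -0.94, 2 ribosomal protein hosts called higher and 1 other noncoding gene called lower; the requirement of a signal above the limit left 14 members with a median of -0.46. With limma-trend and robust eBayes 13 members were called lower, as were 5 genes of snoRNP proteins, while 2 ribosomal protein hosts and 2 other noncoding genes were called higher. Raising all values to a common lower limit of 8.04, a setting chosen after seeing the data, left 1 other noncoding gene called lower. With the replicate number as a block, 7 members were called lower with a median of -0.22. In that setting 2 ribosomal protein hosts and 4 other coding hosts were called higher, and 6 other coding hosts were called lower. The calls of SNORD36C (limma, Benjamini-Hochberg adjusted p = 0.0507), SNORA70 (0.0601) and SNORD55 (0.112) were lost. Only the mock group has a replicate 3, so mock array 3 adds nothing to these differences, which equal those without it. Deviations of same-numbered arrays correlated at 0.0361 and 0.115, and those of differently numbered arrays at -0.115 to 0.0677. With 2 pull-down arrays, deviations from the group mean are mirror images, so these correlations are tied to each other and cannot decide on pairing. The labels tie nothing else to the numbers, so same-numbered arrays were not taken as pairs. The difference of SNORA62 was -0.0369 after quantile normalization, and with 1 array left out that of SNORD35B ran from -0.1353 to 0.0354, above 0 only without pull-down array 2. Of 367 differences of single members under the alternatives, 326 kept direction and side of the threshold, 26 lost a call, 13 gained one and 2 changed sign. The cause of these changes was not tested, and the shares of all genes called under these settings are not given here. Signal near the lower limit, at which both pull-down arrays lay for 17 of the 27 members, limits what can be measured for the snoRNAs.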
